A study of Caenorhabditis elegans with 18 samples.

Results

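In *Caenorhabditis elegans*, 10 genes of the insulin pathway were followed through cold exposure and loss of the stress sensor IRE-1. They are the receptor gene daf-2, the kinase genes age-1, akt-1 and sgk-1, the transcription factor gene daf-16, and 5 genes known as outputs of that factor, sod-3, dod-3, icl-1, lea-1 and dod-24. They were taken by symbol from a list of names, chosen with earlier results of these data known. All 10 were found among the 46748 gene identifiers of the count tables. RNA of whole worms was sequenced after poly(A) selection in 18 libraries. Mutant worms carried the deletion allele ire-1(ok799), and every mutant library came from the single strain CF2473. Wild-type (WT) worms were of the strain N2. All worms grew from eggs at 15 °C for 5 days until day 1 of adulthood. Control worms were taken then, and cold worms after a further 24 h at 2 °C. Cold worms were therefore 24 h older than controls, and cold and age cannot be told apart. Experiment 1 held 3 libraries each of ire-1 cold, ire-1 control, WT cold and WT control, numbered 1 to 3. Experiment 2 held 3 further libraries each of WT cold and WT control, numbered 4 to 6.

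In the worm, insulin-like peptides act on the receptor DAF-2, which works through the lipid kinase AGE-1 and the protein kinases AKT-1, AKT-2 and SGK-1 to keep the FOXO factor DAF-16 out of the nucleus. When signalling is low, DAF-16 enters the nucleus, raises one set of genes (class I, such as sod-3) and lowers another (class II, such as dod-24). The pathway is best known for its control of life span, dauer formation and stress resistance, and daf-2 mutants are known to survive cold better than WT. IRE-1 senses unfolded protein in the endoplasmic reticulum (ER) and splices the mRNA of the factor XBP-1.

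Total counts were 20621965 to 29518450 in experiment 1 and 10449794 to 16814732 in experiment 2. Levels are given in CPM, the usual read count scaled to library size, with TMM factors over all 18 libraries. In 4 libraries, ire-1 control 1, ire-1 cold 2, WT control 1 and WT cold 2, the summed level of 63 sperm genes was 543 to 2315 CPM, against 8.67 to 206 CPM in the other 14. The library WT control 1 also had the lowest germline markers (3058 CPM summed over 12 genes, against 8256 to 18980 CPM elsewhere) and the highest cuticle markers. The ire-1 transcript was counted at 36.6 to 63.8 CPM in the 6 ire-1 libraries and at 85.4 to 207 CPM in the 6 WT libraries of experiment 1. That count checks the labels only in part, because reads outside the deleted stretch are also counted. Because RNA came from whole worms, fewer cells of a type and less RNA per cell cannot be told apart.

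After 24 h in the cold, WT worms had less RNA of 2 of the 10 genes, the outputs dod-3 and icl-1. By edgeR's quasi-likelihood test over all genes, which gave these 2, none of the 10 rose. An unadjusted p under 0.05 was reached by 5 of the 10, and by 3821 of all 11766 genes tested. Over all 11766 genes tested, 13.1% were called, 10.4% lower and 2.70% higher, and 2 of 10 is near that background. Without WT control 6, akt-1 and sgk-1 passed too, making 4 of 10. That fit called 2632 genes over all, against 1545 in the main fit. Each experiment fitted alone gave 0 of 10 (experiment 1, 3 genes over all) and 1 of 10 (experiment 2, 48 genes over all). The 10 genes had a median log2 fold change of -0.41, against -0.07 for all tested genes. In ire-1 worms cold called 0 of the 10 genes (2 at an unadjusted p under 0.05, and 0 by DESeq2) and 0.0558% of all 14344 genes tested. Of these 14344 genes 1009 had an unadjusted p under 0.05, and DESeq2 called 342. The comparison of ire-1 with WT called 0 of the 10 in the control (1 at an unadjusted p under 0.05, and 1 by DESeq2), with 0.0627% of all genes called. Over all genes 1742 had an unadjusted p under 0.05 there, and DESeq2 called 294. In the cold the same comparison called 0 of the 10 (1 at an unadjusted p under 0.05, and 0 by DESeq2), with 0.0139% of all genes called. Over all genes 1098 had an unadjusted p under 0.05 in the cold, and DESeq2 called 47. No difference between the cold responses of ire-1 and WT was called by edgeR, where 0 of 14344 genes (0%) passed and 197 had an unadjusted p under 0.05, against 1 call by DESeq2. Of the 10 genes, 0 had an unadjusted p under 0.05 there, and DESeq2 called 0. The 2 strain comparisons each gave their largest value among the 10 genes for sod-3.

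**Figure D1:**
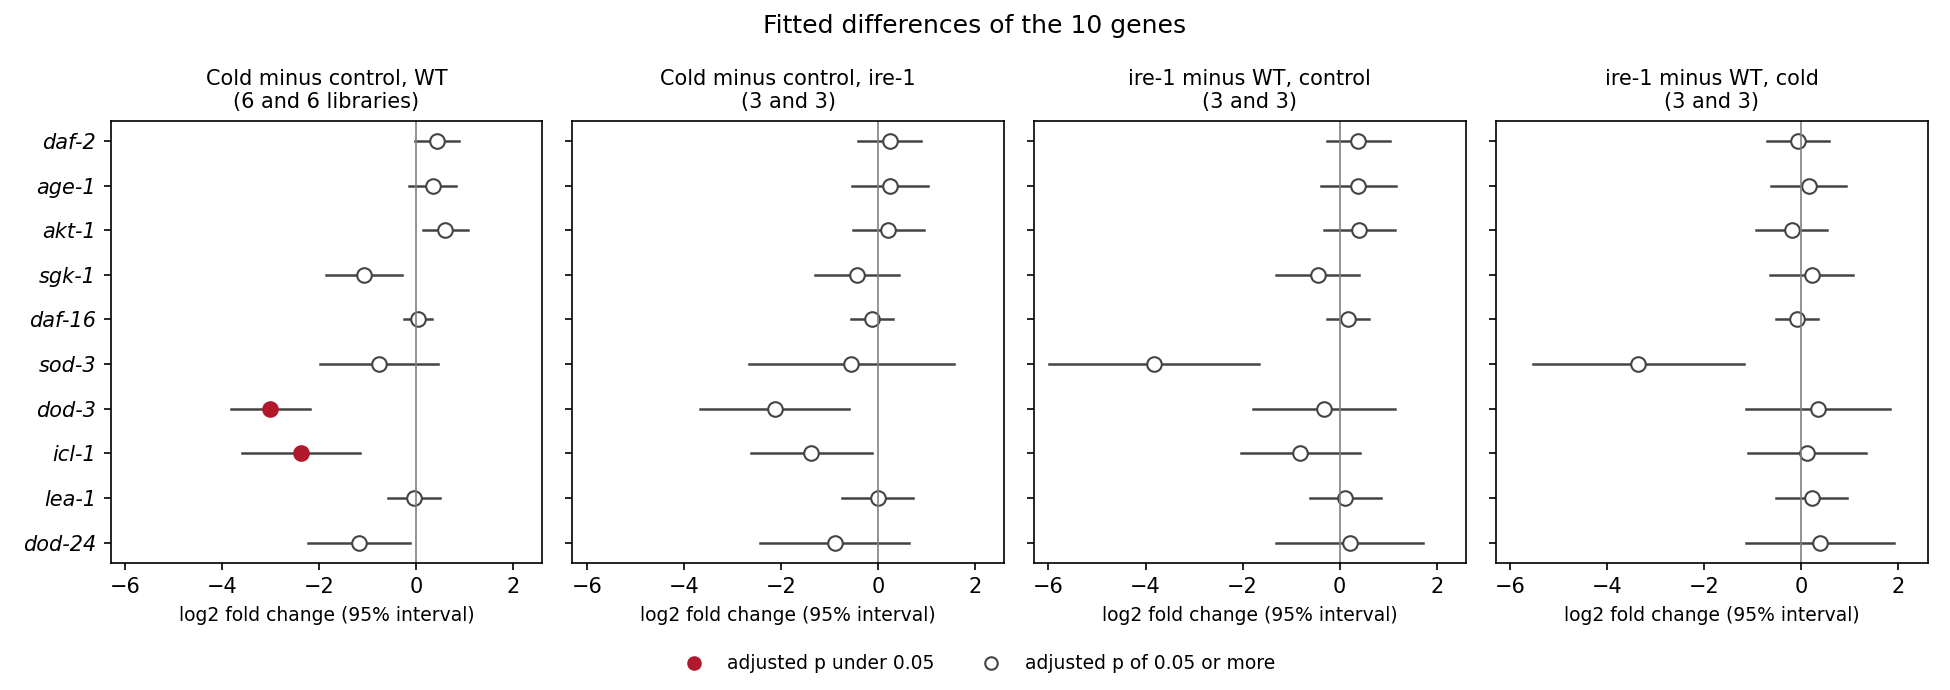
Fitted log2 differences of the 10 genes in 4 comparisons (horizontal axis, log2 fold change with its 95% interval), cold minus control and ire-1 minus WT. The filled points are dod-3 (-3.01) and icl-1 (-2.38) for cold in WT, and the sod-3 intervals lie below 0 in both strain comparisons.

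The receptor gene daf-2 (WBGene00000898, chromosome III, 2994514 to 3040846, minus strand, build WBcel235) encodes the only insulin and IGF-1 receptor ortholog of the worm. Its levels were 170.0, 109 and 136 CPM in ire-1 cold and 122, 114 and 113 CPM in ire-1 control. They ran from 95.3 to 227 CPM in WT cold (median 169) and from 55.0 to 167 CPM in WT control (median 120.1). All 3 ire-1 controls lay above the 3 WT controls of experiment 1, which had 55.0, 102 and 103.6 CPM, while the other groups overlapped. Such a lack of overlap in the higher direction was seen in 4.43% of all genes, and the fitted difference of 0.38 ± 0.29 (log2 ± SE) did not pass (adjusted p = 0.668). In WT the cold value was 0.43 ± 0.21 (n = 6 per group, adjusted p = 0.171), with 0.77 in experiment 1 and 0.22 in experiment 2 fitted alone. In ire-1 it was 0.24 ± 0.29 (n = 3 per group, adjusted p = 1.00).

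The gene age-1 (WBGene00000090, chromosome II, 11519328 to 11527054, minus strand) encodes the catalytic subunit of phosphatidylinositol 3-kinase. It stood at 158, 96.2 and 151 CPM in ire-1 cold and at 75.1, 133 and 132 CPM in ire-1 control. WT cold ran from 87.6 to 168 CPM (median 129) and WT control from 39.1 to 143 CPM (median 106). The groups overlapped in every pair, and the fitted values were 0.25 ± 0.35 for cold in ire-1 (adjusted p = 1.00) and 0.34 ± 0.22 for cold in WT (adjusted p = 0.310). Experiment 1 alone gave 0.52 and experiment 2 gave 0.26 in WT. The lowest WT control, number 1, was also the lowest of the 18 libraries for daf-2 (55.0 CPM), akt-1 (77.3 CPM) and daf-16 (79.1 CPM).

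AKT-1, a kinase of the Akt/PKB family, phosphorylates DAF-16, and its gene (WBGene00000102, chromosome V, 10248905 to 10252845, plus strand) had 298, 177 and 280.2 CPM in ire-1 cold, against 156, 258 and 236 CPM in ire-1 control. WT cold had 303, 257, 275, 325, 242 and 313 CPM, and WT control 77.3, 151, 250.1, 204, 171 and 275 CPM (replicates 1 to 6). In WT all cold libraries lay above the 4 lowest controls, and WT control 3 and WT control 6 reached into the range of the cold libraries. The cold value in WT, 0.60 ± 0.22, did not pass (adjusted p = 0.0840). It passed by DESeq2 (adjusted p = 0.0357) and without WT control 3 (0.0297) or WT control 6 (0.0469), and the adjusted p over 22 alternatives ran from 0.0297 to 0.365. Alone, experiment 1 gave 0.84 and experiment 2 gave 0.45. In ire-1 the value was 0.21 ± 0.33 (adjusted p = 1.00), and ire-1 minus WT in cold response was -0.60 (95% interval -1.63 to 0.43). The akt-1 exons share 8 bases with rop-1 on the opposite strand, and rop-1 rose in WT cold (0.93 ± 0.14, adjusted p = 0.00182). The strand setting of the counting is not given in the sources used here, so a share of rop-1 reads in the akt-1 count was not tested.

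The gene sgk-1 (WBGene00004789, chromosome X, 16254842 to 16262122, minus strand) encodes the kinase that works beside AKT-1 and AKT-2. It had 9.91, 17.9 and 10.6 CPM in ire-1 cold, against 22.6, 16.6 and 13.3 CPM in ire-1 control. In WT cold it had 7.06, 13.1, 12.05, 11.1, 20.9 and 4.92 CPM, against 27.5, 23.02, 18.3, 31.97, 29.3 and 11.6 CPM in WT control. The highest cold library, WT cold 5, and the lowest control, WT control 6, are the ones that made the WT groups overlap, while in experiment 1 all 3 cold libraries lay below all 3 controls. The fitted cold value in WT was -1.07 ± 0.36 (adjusted p = 0.0690), with -1.04 in experiment 1 and -0.99 in experiment 2 fitted alone. It passed without WT cold 5 (adjusted p = 0.0195) or WT control 6 (0.0264), by DESeq2 (0.0249), by limma-voom (0.0392) and with the replicate number as a block (0.0225). Over all 22 alternatives the adjusted p ran from 0.0195 to 0.460. In ire-1 the cold value was -0.43 ± 0.39 (adjusted p = 1.00), and the difference between the strains' responses was 0.67 with a 95% interval from -0.55 to 1.88.

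Among the 10 genes daf-16 (WBGene00000912, chromosome I, 10750498 to 10776703, plus strand), the FOXO factor itself, varied least over the 18 libraries, with a coefficient of variation of 15.99%. Its levels were 117, 92.7 and 104.03 CPM in ire-1 cold and 129, 106 and 106 CPM in ire-1 control, against 83.4 to 148 CPM in WT cold (median 111) and 79.1 to 124 CPM in WT control (median 115). All 4 groups overlapped, and the highest of the 18 libraries held 1.87 times the lowest. The fitted values were -0.12 ± 0.20 for cold in ire-1 and 0.04 ± 0.14 for cold in WT, the second with a 95% interval from -0.26 to 0.33. Experiment 1 alone gave 0.21 in WT and experiment 2 gave -0.01. The pathway acts on where the DAF-16 protein lies in the cell, which an mRNA level does not report.

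**Figure D2:**
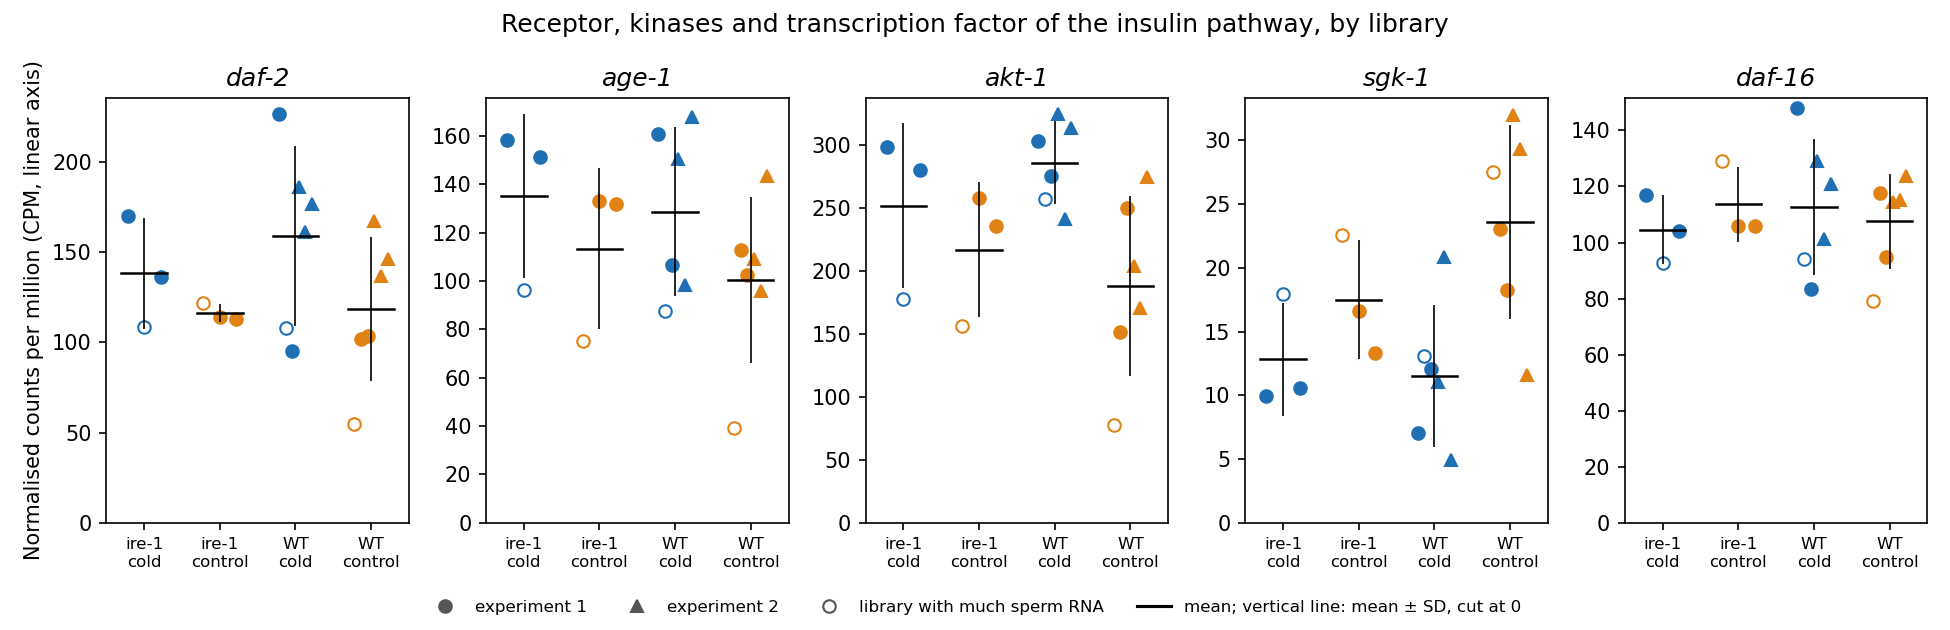
Levels of daf-2, age-1, akt-1, sgk-1 and daf-16 by library (CPM, linear axis from 0), with circles for experiment 1, triangles for experiment 2 and open symbols for the 4 libraries with much sperm RNA. The bars are group means and the vertical lines mean ± SD. The groups overlap in most panels, sgk-1 stands at 4.92 to 13.1 CPM in 5 of 6 WT cold libraries, and WT control 1 is the lowest point for daf-2, age-1, akt-1 and daf-16.

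Per length of exon (CPM per kilobase, RPKM), the mean levels over the 18 libraries put akt-1 at 103.7 ± 29.3 (SD), age-1 at 29.99 ± 8.73, daf-16 at 29.8 ± 4.76, daf-2 at 16.3 ± 4.94 and sgk-1 at 10.2 ± 4.74. The order of age-1 and daf-16 is within their spread, and so is that of daf-2 and sgk-1. Of the outputs, icl-1 (90.4 ± 93.0) and lea-1 (86.9 ± 24.99) stood near akt-1, then dod-3 (31.6 ± 39.4) and dod-24 (11.7 ± 7.64), with sod-3 lowest at 1.16 ± 1.43. The spread of dod-3, icl-1 and sod-3 is as large as their mean or larger, so their place in this order depends on the group. In WT cold icl-1 averaged 33.7 ± 18.7 RPKM, against 172 ± 122 RPKM in WT control (SD, n = 6 each). The mean of dod-3 was 8.40 ± 4.77 RPKM in WT cold and 69.5 ± 49.4 RPKM in WT control.

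The outputs dod-3 and icl-1, both of the class that DAF-16 raises, were lower in WT cold. The gene dod-3 (WBGene00016052, chromosome V, 2730622 to 2731098, minus strand), named for being downstream of DAF-16, had 0.841, 2.51 and 4.59 CPM in ire-1 cold, against 16.5, 6.46 and 11.8 CPM in ire-1 control. In WT cold it had 1.46, 1.44, 3.14, 5.496, 6.25 and 3.38 CPM, against 10.1, 24.95, 7.11, 55.6, 52.9 and 24.4 CPM in WT control. The highest cold library lay below the lowest control in both strains, and experiment 2 had the higher mean in both WT groups. In WT the fall was -3.01 ± 0.38 (adjusted p = 0.000632), 0.125 of the control level, and 4.90% of all genes had WT groups that did not overlap in that direction. Fitted alone, experiment 2 gave -3.15 (adjusted p = 0.0497) and experiment 1 gave -2.75, which did not pass (0.0968), and without the 4 libraries with much sperm RNA it was -3.003. It passed in 21 of 22 alternatives, with adjusted p from 2.76e-14 to 0.0968. In ire-1 the value was -2.13 ± 0.69 (adjusted p = 0.365), with an unadjusted p of 0.0111. The responses of the strains differed by 0.67, with a 95% interval from -1.41 to 2.76, which includes both no difference and a large one. Without WT control 2 it was -0.16.

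The gene icl-1 (WBGene00001564, chromosome V, 724332 to 728004, minus strand) encodes the enzyme of the glyoxylate cycle that lets the worm make sugar from fat. It had 107, 147 and 85.2 CPM in ire-1 cold, against 419, 219.8 and 245 CPM in ire-1 control, with no overlap. WT cold had 91.0, 92.1, 123, 77.4, 212 and 38.9 CPM, and WT control 333.6, 1009, 163, 863, 747 and 121 CPM. The WT controls spread widely, and the 2 lowest of them, numbers 3 and 6, reached into the range of the cold libraries. In WT cold icl-1 fell, with a log2 fold change of -2.38 ± 0.56 (adjusted p = 0.0166). The value was -2.23 in experiment 1 alone and -2.41 in experiment 2 alone, and neither passed (adjusted p = 0.136 for experiment 1 and 0.276 for experiment 2). It passed in 20 of 22 alternatives, with adjusted p from 9.16e-05 to 0.276. In ire-1 it was -1.37 ± 0.56 (adjusted p = 0.595), and the strains' responses differed by 0.93 (95% interval -0.80 to 2.66). Without WT control 2 that difference was -0.22, so this library sets its direction.

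The gene lea-1 (WBGene00002263, chromosome V, 10011923 to 10028168, plus strand) encodes a relative of the plant proteins that protect drying seeds. Its levels were 425, 371 and 404 CPM in ire-1 cold and 439, 393 and 374 CPM in ire-1 control. They ran from 242 to 594 CPM in WT cold (median 434) and from 202 to 617 CPM in WT control (median 440.2). All 4 groups overlapped, and the cold values were -0.01 ± 0.33 in ire-1 (adjusted p = 1.00) and -0.05 ± 0.25 in WT (adjusted p = 0.899), with signs that turn under other scalings. The 6 ire-1 libraries lay within 371 to 439 CPM, a coefficient of variation of 6.79%, while the 6 WT libraries of experiment 1 spread over 202 to 593 CPM, or 43.2%. This difference in spread was not tested.

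The class II gene dod-24 (WBGene00007875, chromosome IV, 12940106 to 12941354, minus strand), which DAF-16 lowers and infection raises, had 9.02, 16.3 and 10.4 CPM in ire-1 cold, against 33.5, 16.7 and 16.9 CPM in ire-1 control. WT cold had 4.56, 16.6, 4.74, 4.46, 10.5 and 2.89 CPM, and WT control 34.5, 11.4, 8.67, 13.6, 17.9 and 10.3 CPM. The ire-1 groups did not overlap, the WT groups did, and each of the 4 libraries with much sperm RNA was the highest of its group in its experiment. The cold value was -0.89 ± 0.69 in ire-1 (adjusted p = 1.00) and -1.18 ± 0.49 in WT (adjusted p = 0.117), with -0.98 in experiment 1 and -1.23 in experiment 2 alone. Without those 4 libraries the WT value was again -1.18 and passed (adjusted p = 0.0466), while over all 22 alternatives the adjusted p ran from 0.0466 to 0.515. Of the 10 genes 3, dod-3, icl-1 and dod-24, had ire-1 cold libraries all below the ire-1 controls, a pattern seen in 9.33% of all genes.

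**Figure D3:**
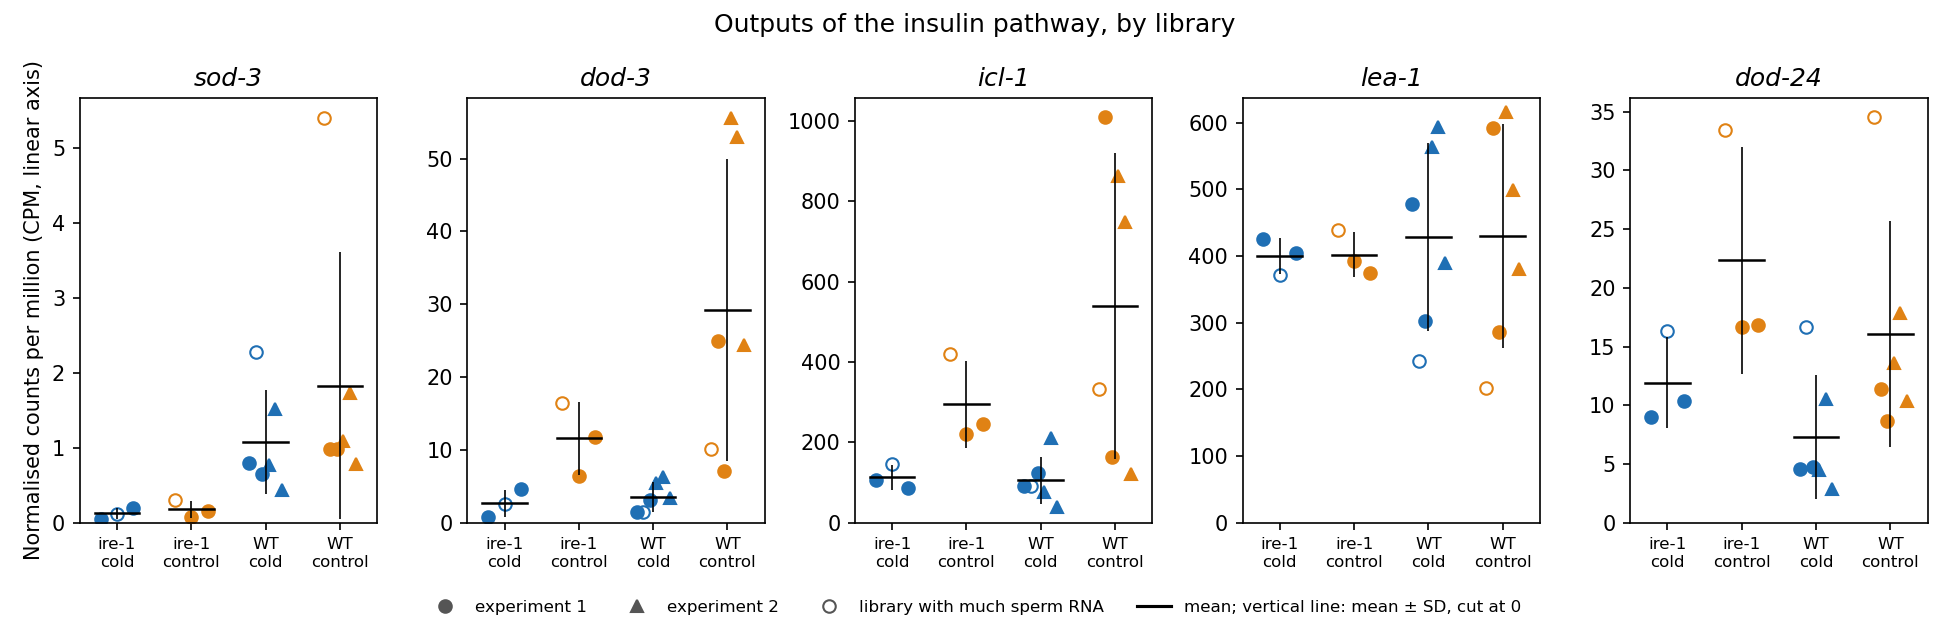
Levels of sod-3, dod-3, icl-1, lea-1 and dod-24 by library (CPM, linear axis from 0), with circles for experiment 1, triangles for experiment 2 and open symbols for the 4 libraries with much sperm RNA. The bars are group means and the vertical lines mean ± SD. All dod-3 cold libraries lie below the controls of their strain, and all 6 ire-1 libraries lie below every WT library for sod-3 (0.305 CPM at most, against 0.430 CPM at least).

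The gene sod-3 (WBGene00004932, chromosome X, 17092753 to 17094306, plus strand) encodes a mitochondrial manganese superoxide dismutase and is the usual reporter of DAF-16 activity. Per length it was the least abundant of the 10. In ire-1 cold it had 0.0467, 0.121 and 0.202 CPM, against 0.794, 2.28 and 0.644 CPM in WT cold of experiment 1. In ire-1 control it had 0.305, 0.0769 and 0.157 CPM, against 5.40, 0.991 and 0.979 CPM in WT control of experiment 1. All 6 ire-1 libraries lay below all 6 WT libraries of experiment 1 and below the 6 of experiment 2 as well, which had 0.430 to 1.74 CPM. The counts behind these levels are small, at 24 reads in the 6 ire-1 libraries (1 to 10 per library) and 288 reads in the 6 WT libraries of experiment 1 (17 to 138 per library). Summed over 3 libraries, ire-1 cold had 8 reads (exact Poisson 95% interval 3.45 to 15.8) and WT cold 101 (82.3 to 123). In the control ire-1 had 16 reads (9.15 to 26.0) and WT 187 (161 to 216), of which 138 were in WT control 1. These intervals cover counting error only.

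In the control the fitted value of sod-3 in ire-1 against WT was -3.83 ± 0.98 (edgeR, n = 3 per group, adjusted p = 0.183). Cold worms gave -3.36 ± 0.98 (adjusted p = 0.613), and neither value passed. A lack of overlap in the lower direction was found in 10.2% of all genes in the control and 7.42% in the cold. DESeq2 called the control difference (-3.61, adjusted p = 0.0173), among 294 genes over all, against 9 by edgeR. The difference was also called by edgeR when ire-1 and WT libraries of the same number were paired within each condition (-3.63 ± 0.57, adjusted p = 0.0142). That fit called 2.72% of all genes in the control and 0.153% in the cold, where sod-3 had -3.26 (adjusted p = 0.102). The labels do not state this pairing. It rests on how the libraries deviated together (correlated over 0.1), as 4 of 12 pairs of unlike number did too. Over its 16 alternatives the adjusted p of the control difference ran from 0.0142 to 0.512. Without the 4 libraries with much sperm RNA, among them the 2 highest WT libraries of experiment 1, the difference was -2.96 in the control and -2.54 in the cold. With single libraries left out it ran from -4.22 to -2.35 in the control, the smallest without WT control 1, and from -3.84 to -2.49 in the cold, the smallest without WT cold 2.

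A test of the mean of both conditions was added after the sod-3 values were seen. It gave -3.60 ± 0.69 for ire-1 against WT (adjusted p = 0.0571), with 0 of the 10 genes and 0.258% of all genes called. Of all genes, 2.22% had all 6 ire-1 libraries below all 6 WT libraries, as sod-3 did. The difference passed with the pairing (-3.44, adjusted p = 0.00245, where 11.3% of all genes were called) and without the 4 libraries with much sperm RNA (-2.75, 0.0372, 94 genes called). It also passed by DESeq2 (0.000183, 820 genes called), with all 18 libraries (0.00968, 677 genes) and without WT control 3 (0.0423, 188 genes). The main fit called 37 genes. Over 21 alternatives the adjusted p of sod-3 reached 0.158. The sod-3 exons share 24 bases with lido-1 and 65 bases with C08A9.3 on the opposite strand. The value of lido-1 was -0.15 ± 0.33 (adjusted p = 0.859), and C08A9.3 had 5 reads in all 18 libraries. Of the related genes, sod-2, the other mitochondrial manganese dismutase, had -0.64 ± 0.13 (adjusted p = 0.0611) and sod-1, a cytosolic copper and zinc dismutase, had -0.10 ± 0.09.

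Cold left sod-3 at -0.55 ± 0.96 in ire-1 (adjusted p = 1.00) and at -0.77 ± 0.56 in WT (adjusted p = 0.351), with -0.90 in experiment 1 and -0.42 in experiment 2 alone. In WT the cold libraries had 0.430 to 2.28 CPM (median 0.785) and the controls 0.781 to 5.40 CPM (median 1.04), and the groups overlapped. Without WT control 1 the WT value was -0.0414, so that library sets most of it. In ire-1 the value rests on 8 reads in the cold and 16 in the control, and its 95% interval ran from -2.66 to 1.56. For the remaining genes ire-1 minus WT in the cold was -0.20 for akt-1, -0.08 for daf-16, -0.07 for daf-2, 0.12 for icl-1, 0.16 for age-1, 0.21 for sgk-1, 0.21 for lea-1, 0.35 for dod-3 and 0.39 for dod-24. In the control it was -0.81 for icl-1, -0.45 for sgk-1, -0.32 for dod-3, 0.12 for lea-1, 0.18 for daf-16, 0.20 for dod-24, 0.38 for age-1 and 0.41 for akt-1, beside the 0.38 of daf-2. Without WT control 2 the icl-1 value was 0.40. None of these passed, and the 95% intervals reach from -2.04 to 0.41 for icl-1 in the control and from -0.32 to 1.13 for akt-1 there.

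**Figure D4:**
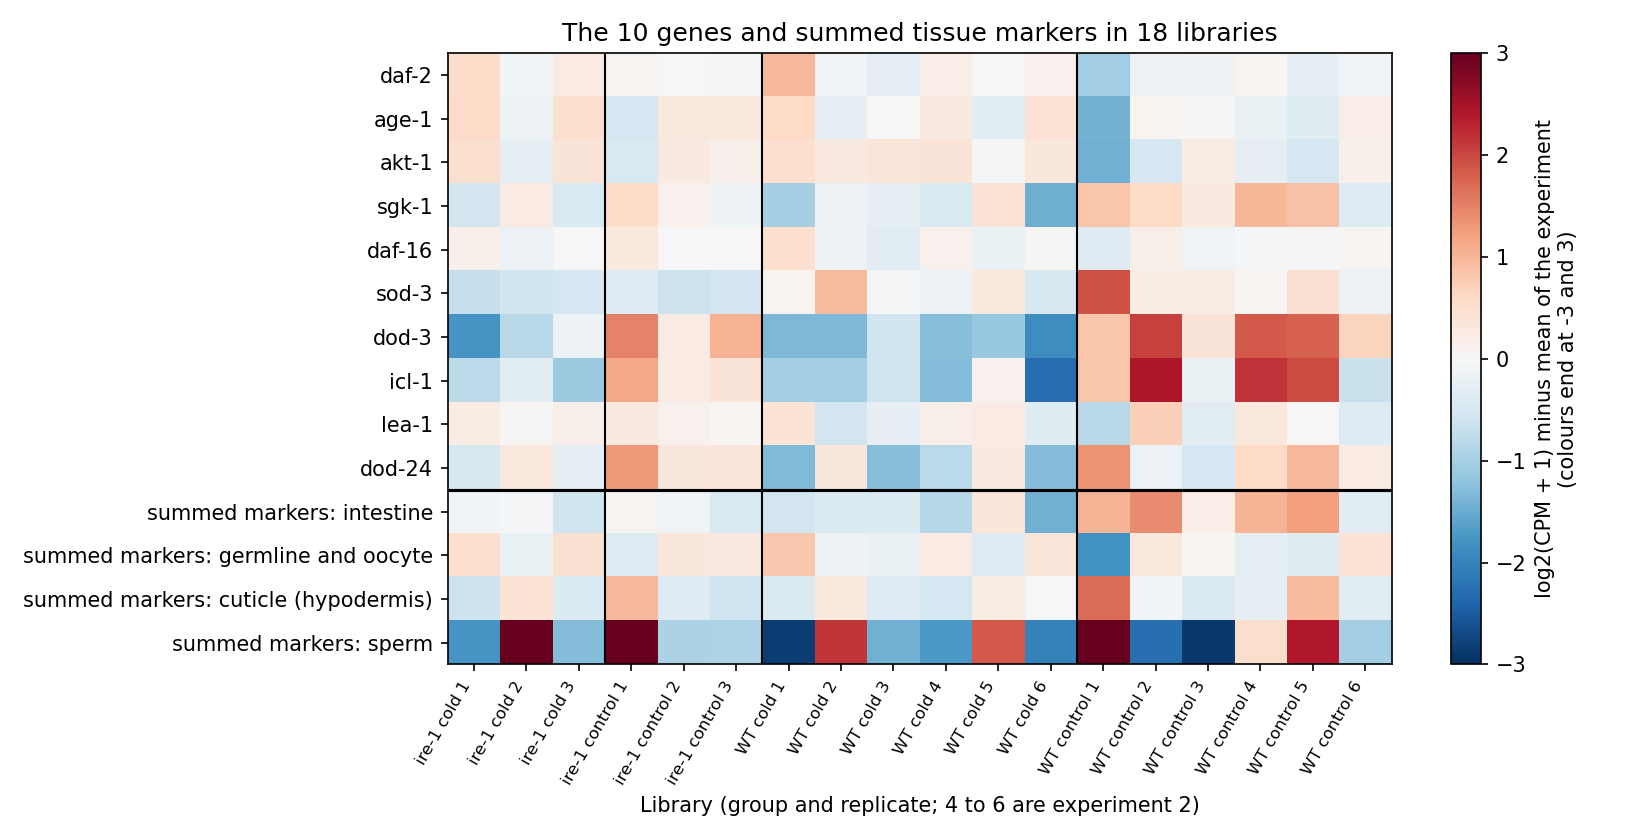
Levels of the 10 genes and summed levels of 4 marker lists in the 18 libraries, as log2(CPM + 1) minus the mean of the experiment, with colours ending at -3 and 3. The rows of sgk-1, dod-3, icl-1 and dod-24 are blue in most WT cold libraries and red in most WT controls, as is the intestine row. The sperm row is red in the 4 libraries with much sperm RNA. It is also red in WT control 5 (206 CPM) and WT cold 5 (138 CPM), because experiment 2 is set against its own lower mean.

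The rest of the pathway was read from lists of its known genes, chosen with earlier results of these data known. Between receptor and transcription factor, 13 genes were listed and tested, and in WT cold 1 fell and 0 rose, with a median of 0.34. Of all genes 10.4% fell and 2.70% rose there, so 1 of 13 is near the background. The one that fell was ftt-2, a 14-3-3 protein that binds DAF-16 (-1.31 ± 0.18, adjusted p = 0.000857), at 66.9 to 117 CPM in the 6 WT cold libraries and 171 to 275 CPM in the 6 WT controls. These groups did not overlap. The second Akt gene, akt-2, had 0.89 ± 0.29 (adjusted p = 0.0647). Of 20 partners and regulators of DAF-16, 17 were tested and 3 fell, with a median of 0.22, again beside 10.4% of all genes lower. These were the MAD-like factor gene mdl-1 (-1.49 ± 0.37, adjusted p = 0.0200), the steroid receptor gene daf-12 (-1.16 ± 0.34, adjusted p = 0.0434) and hlh-30 (-1.01 ± 0.26, adjusted p = 0.0233), the gene for the TFEB factor of autophagy. None of these 3 passed when WT control 4, WT control 5, WT cold 4 or WT cold 6 was left out, 1 passed without WT control 1, WT control 2 or WT cold 3, and 2 passed without WT cold 1 or without the 4 libraries with much sperm RNA. Of 14 insulin-like ligand genes 4 were expressed enough to test in WT, and 2 fell, ins-4 (-1.82 ± 0.49, adjusted p = 0.0297) and ins-7 (-1.76 ± 0.51, adjusted p = 0.0399). Both are scarce, ins-4 at 0.278 ± 0.190 CPM in WT cold and 0.904 ± 0.400 CPM in WT control, and ins-7 at 0.567 ± 0.358 CPM in WT cold and 1.89 ± 1.11 CPM in WT control (SD, n = 6 each). Neither ligand passed with no filter on low counts, nor when WT control 4 or 5 was left out, nor any of WT cold 1, 3, 4 and 6. The filter on low counts removed ins-4 without WT control 1, without WT control 2 and without the 4 libraries with much sperm RNA, and of these fits ins-7 passed in all but the one without WT control 1. Without WT cold 2 ins-7 passed and ins-4 did not. Without WT cold 5 there were 3 ligands, in a fit that called 2281 genes over all, against 1545 in the main fit.

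Of the class I outputs, 20 of 22 listed symbols were found and 18 were tested. In WT cold 3 fell, dod-3, icl-1 and the peroxisomal catalase gene ctl-2 (-1.88 ± 0.39, adjusted p = 0.00850), and 0 rose, with a median of -0.84. Leaving aside the followed genes, 1 of 14 fell, against 10.4% of all genes. Without WT control 6 there were 6 that fell, in a fit that called 2632 genes over all, against 1545 in the main fit. Of the class II outputs, 13 of 14 listed symbols were found and 10 were tested. In WT cold 5 of these 10 fell and 0 rose, with a median of -1.15, beside the same 10.4% of all genes lower. Because the list was chosen with earlier results of these data known, this count says nothing of class II as a whole. The 5 were the nuclease gene nuc-1 (-1.44 ± 0.34, adjusted p = 0.0166), the yolk protein genes vit-2 (-1.17 ± 0.33, 0.0362) and vit-5 (-1.42 ± 0.33, 0.0158), dod-23 (-1.14 ± 0.27, 0.0177) and dod-19 (-1.14 ± 0.32, 0.0347). Reads of vit-5 can be shared with its near-identical copies, so its value is uncertain. With WT control 4 left out none of the class II genes passed, and 3 passed with any of WT control 1, WT control 5 and WT cold 1, 3, 4 and 6 left out. Without the 4 libraries with much sperm RNA 5 passed, dod-19, nuc-1 and vit-5 again and dod-17 and dod-24 besides. Fitted alone, experiment 1 called 0 genes of the 5 lists and experiment 2 called only dod-3. The genes that DAF-16 raises and those that it lowers thus both had medians below that of all tested genes (-0.07) in WT cold. In ire-1 cold 0 genes of either list passed, with medians of -0.17 for class I and -0.75 for class II.

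Between ire-1 and WT in the control, class II held 2 lower genes, dod-23 (-2.17 ± 0.25, adjusted p = 0.0187) and nuc-1 (-1.99 ± 0.25, adjusted p = 0.0238). Class I held 0, and 0.0627% of all genes were called. The lists were chosen with earlier results of these data known, so these 2 calls say nothing of class II as a whole. The gene dod-23 stood at 54.7 ± 11.98 CPM in ire-1 control and 234 ± 56.4 CPM in WT control of experiment 1 (SD, n = 3 each). The level of nuc-1 was 43.1 ± 2.84 CPM in ire-1 control and 164 ± 52.7 CPM in WT control of experiment 1. Leaving out ire-1 control 1, 2 or 3, WT control 2 or the 4 libraries with much sperm RNA ended both calls, as did fitting these 2 groups alone, and leaving out WT control 1 or using all 18 libraries ended that of nuc-1. In class I, 14 of 18 values lay below 0 in that comparison, with a median of -0.95, against -0.04 for all tested genes. The intestine markers moved with it, with a median of -0.43 and sums of 2884, 2492 and 2009 CPM in ire-1 control, against 5546, 7309 and 3127 CPM in WT control of experiment 1, without overlap. The other marker lists had medians from -0.24 (cuticle) to 0.39 (muscle) there. The part of the intestine markers in the class I values was not tested. In the cold 11 of 18 lay below 0, with a median of -0.38. With the pairing, ctl-2 passed beside sod-3 in the control (-1.24 ± 0.26, adjusted p = 0.0376). For the mean of both conditions the pairing called 5 class I genes lower in ire-1, sod-3, ctl-2, lys-7, hsp-12.6 and pck-1, and 1 higher, dod-6 (1.98 ± 0.35, adjusted p = 0.0120), where it called 11.3% of all genes. In the same fit the class II genes dod-23, nuc-1 and vit-5 (-0.61) were lower and dod-22 was higher (1.45, adjusted p = 0.0127), and the ligand gene ins-37 was higher (1.86, adjusted p = 0.0350). In the difference of the cold responses 17 of the 18 class I values lay above 0, with a median of 0.62 against 0.12 for all genes, and 0 of them passed. Markers of some tissues moved the same way there, with medians of 1.13 for intestine, 1.34 for cuticle and 1.66 for sperm. The medians were 0.27 for muscle, 0.20 for neurons and -0.23 for germline, and 0 of all these markers passed. Their part in the class I values was not tested either.

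Markers of some tissues moved with these genes in WT. The marker lists were chosen with earlier results of these data known, so their counts are a description. Of 74 cuticle markers tested 10 fell in WT cold, beside 10.4% of all genes, with a median of -0.98. Of 27 sperm markers tested 0 passed, with a median of -1.52. The medians were 0.30 for 12 germline markers (0 passed), -0.45 for 7 muscle markers (0 passed) and -0.55 for 9 neuron markers (1 rose). Of 13 intestine markers 8 fell in WT cold, with a median of -1.45 and a summed level of 1217 to 4285 CPM in WT cold and 2638 to 7760 CPM in WT control. In ire-1 the same sum was 1823 to 2668 CPM in the cold and 2009 to 2884 CPM in the control, and 0 of the 13 passed. No intestine marker was at 0 in any group. WT cold 5, with the highest sgk-1, dod-3 and icl-1 of the WT cold libraries, also had their highest intestine sum (4285 CPM), and WT control 6, with the lowest sgk-1 and icl-1 of the WT controls, had their lowest (2638 CPM). The dod-3 level of WT control 6 (24.4 CPM) was not the lowest of the WT controls (7.11 to 55.6 CPM), though it was the lowest of those in experiment 2. The part of these tissues' RNA in the falls of dod-3 and icl-1 was not tested. For sod-3, the WT libraries of experiment 1 with much sperm RNA were the highest of their groups, WT cold 2 at 2.28 CPM and WT control 1 at 5.40 CPM. The 4 other WT libraries there, at 0.644 to 0.991 CPM, were above all ire-1 libraries too.

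Across the 18 libraries the levels of several of the 10 genes varied together, as log2(CPM + 1) within experiments. Pearson's r was 0.89 for sgk-1 with icl-1, 0.88 for dod-3 with icl-1 and 0.87 for age-1 with akt-1. The most negative values were -0.78 for age-1 with sod-3 and -0.76 for akt-1 with sgk-1. These libraries share groups, and the summed tissue markers differ between them, so r is given as a description with no test. Among 11288 genes, the ones most like each of the 10 were nhl-2 for daf-2 (r = 0.92), vab-1 for age-1 (0.99), C50B6.3 for akt-1 (0.99), K09E9.1 for sgk-1 (0.96) and swsn-1 for daf-16 (0.91). For the outputs they were erd-2.1 for sod-3 (0.94), nhr-90 for dod-3 (0.94), acs-2 for icl-1 (0.97), lgg-2 for lea-1 (0.86) and K08D8.5 for dod-24 (0.98).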

How the data were processed

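The deposited tables hold whole-number counts of reads per gene, 1 column for each library. The submitters' processing notes name bcl2fastq, STAR 2.5.0a, HTSeq and WBcel235. The strand setting is not given in the sources used here. Symbols and coordinates came from the Ensembl annotation of WBcel235, and 3055 identifiers (1.42% of counts) had no symbol.

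The main test was the quasi-likelihood test of edgeR 4.0.16 (R 4.3.3) over all genes, with TMM factors, filterByExpr (minimum count 10, total 15) and Benjamini-Hochberg adjustment at 0.05. Cold in WT was fitted on 12 libraries, experiment being a covariate, and all other contrasts on the 12 libraries of experiment 1. SEs come from the fold change and its F value. DESeq2 1.42.0, limma 3.58.1, other factors, no filter, blocks and left-out libraries served as alternatives. The procedure was also run on simulated counts with set fold changes, drawn with the means and spread of these data. Those counts held no sperm-rich libraries, no shift between experiments and no replicates that deviate together. The simulation therefore cannot vouch for calls that depend on these.

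The series text calls the samples biological replicates. Beyond that nothing says that they came from separate cultures, so p-values measure only the spread between these libraries. No replicates had near-identical counts (smallest chi-square per degree of freedom 12.2). Counting error adds to the spread for sod-3, with 1 to 138 reads per library. After removing group means, ire-1 and WT libraries of 1 number and condition correlated at 0.36 to 0.87, over 0.1 in 6 of 6 pairs. They were taken as pairs in an alternative fit. Those of unlike number in 1 condition ran from -0.83 to 0.75, over 0.1 in 4 of 12 pairs. The library ire-1 control 2 correlated at 0.75 with WT control 3 and at 0.55 with WT control 2, so the pairing is uncertain. Cold and control libraries of 1 number correlated over 0.1 in 4 of 9 pairs. They shared a block only in the alternative with the replicate number as a block.

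The 10 genes, the lists and the markers were chosen with earlier results of these data known. From the lists, called genes are named. akt-2, rop-1, lido-1, sod-1 and sod-2 were named after their values were seen. The genes most like a member have the highest Pearson's r over 18 libraries, among genes of at least 1 CPM on average.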

Additional observations from a re-analysis of the deposited data

Results flagged for a closer look

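In WT control the library WT control 1 stood apart for 2 of the 10 genes. It had 5.40 CPM of sod-3, against 0.781 to 1.74 CPM in the other 5 WT controls, and 34.5 CPM of dod-24, against 8.67 to 17.9 CPM. Each is a single sample far from the others of its group by Dixon's test at 95%. Over the 20 groups tested, chance flags about 1 in 20 if levels are normally distributed, which was not checked. The test used CPM on a linear scale over both experiments, and a log scale was not tried. The same library is 1 of the 4 with much sperm RNA and has the lowest germline markers. What sets it apart was not tested.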

How the results depend on the processing

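Of 1255 values of named genes under alternatives, 1204 kept their direction, 51 turned, 111 lost a call and 16 gained one. The cause of these changes was not tested. The number of genes called for cold in WT (1545) was 2611 by DESeq2, 3 in experiment 1 alone, 48 in experiment 2 alone and 848 to 2632 with single libraries left out (848 without WT control 5, 867 without WT cold 1, 886 without WT control 4, 892 without WT cold 4, 966 without WT cold 6, 987 without WT cold 3, 2632 without WT control 6). Of the 10 genes 4 were called by DESeq2, 0 in experiment 1, 1 in experiment 2 and 2 to 4 with single libraries left out, against 2. For cold in ire-1 (8) it was 17 with RLE factors, 4 with upper-quartile factors, 342 by DESeq2, 14 by limma-voom, 187 without the 4 libraries with much sperm RNA, 0 in the 2 groups alone, 102 with all 18 libraries and 0 to 7 with single libraries left out (0 without ire-1 cold 1 or 3 or ire-1 control 2 or 3, 4 without ire-1 cold 2). For ire-1 against WT in the control (9) it was 294 by DESeq2, 3 without the sperm-rich libraries, 1 in the 2 groups alone, 47 with all 18 libraries and 2 to 48 with single libraries left out (4 without WT control 1, 48 without WT control 3, 2 without each other one). In the cold (2) it was 47 by DESeq2, 6 without the sperm-rich libraries, 5 with all 18 libraries and 1 to 2 with single libraries left out (1 without WT cold 1 or 3 or any ire-1 cold library). For the mean of both conditions (37) it was 820 by DESeq2, 94 without the sperm-rich libraries, 677 with all 18 libraries and 7 to 188 with single libraries left out (188 without WT control 3, and 7 to 23 without WT control 2, WT cold 2 or 3 or any ire-1 library). The difference in cold response had 1 call by DESeq2, against 0. Of the 10 genes, sod-3 was the 1 called by DESeq2 and by the paired fit in the control and for the mean of both conditions, and for the mean also without the sperm-rich libraries and with all 18, with 0 to 1 called when single libraries were left out.

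With the replicate number as a block, 0 genes were called for cold in ire-1, 2 for ire-1 against WT in the control and 13 for the mean of both conditions. With the replicate block within each condition there were 390 in the control, 22 in the cold and 1620 for the mean. The replicate block ended the WT cold calls of ins-4 (adjusted p = 0.0503), ins-7 (0.0629) and dod-19 (0.0672), and those of dod-23 and nuc-1 between the strains in the control (0.0539 each). Over the alternatives of these genes the adjusted p ran from 0.00998 to 0.397 for ins-4, 0.00882 to 0.425 for ins-7, 0.00407 to 0.334 for dod-19, 5.45e-12 to 0.235 for dod-23 and 2.02e-10 to 0.245 for nuc-1.

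Signs turned mostly for values near 0, and also for icl-1 and dod-3 without WT control 2. In the difference in cold response, leaving out WT control 1 took sod-3 from 0.46 to -0.92 and dod-24 from 0.19 to -0.73. Leaving out WT control 2 took lea-1 there from 0.0925 to -0.57. For cold in WT daf-16 was -0.0776 with upper-quartile factors and -0.00989 in experiment 2 (-0.0797 to 0.12 with single libraries left out). For lea-1 it was 0.0389 with RLE factors, 0.0390 by DESeq2, 0.0121 with no filter and 0.0437 in experiment 2 (-0.16 to 0.22). For cold in ire-1, leaving out the sperm-rich libraries gave daf-16 0.00879, sod-3 0.0114 (-1.02 to 0.0768) and lea-1 0.0596, and both RLE factors and DESeq2 gave lea-1 0.0396 (-0.0611 to 0.0658). For ire-1 against WT in the control lea-1 was -0.12 without the sperm-rich libraries (-0.0572 to 0.82), and with single libraries left out dod-3 ran from -0.66 to 0.56, icl-1 from -1.24 to 0.40 and dod-24 from -0.15 to 1.22. In the cold daf-2 was 0.0151 with upper-quartile factors and 0.0694 with all 18 libraries (-0.29 to 0.33), daf-16 0.0163 with upper-quartile factors (-0.23 to 0.12) and icl-1 -0.00164 with the replicate block and -0.19 without the sperm-rich libraries (-0.19 to 0.30). With single libraries left out sgk-1 there ran from -0.19 to 0.43 and dod-3 from -0.26 to 0.83. For the difference in cold response lea-1 was -0.00640 by limma-voom and -0.00569 in the paired fit (-0.57 to 0.33). Left-out libraries moved age-1 there from -0.55 to 0.0637, sod-3 from -0.92 to 1.34, dod-3 from -0.16 to 1.15, icl-1 from -0.22 to 1.35 and dod-24 from -0.73 to 1.17. The promoter motif shares were not run.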
